A study of Mus musculus with 6 samples.

Results

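C-type lectin receptor genes were taken as all protein-coding mouse genes whose symbol starts with Clec, 33 of 21887 genes on build mm10. A peak of open chromatin was given to such a gene when it overlapped the gene body, or lay within 50 kb with no other protein-coding gene nearer. This gave 240 of the 182166 peaks in the table. A stretch of chromosome 6 from 122921848 to 129472785 held 22 of the genes and 132 of the peaks. The other 11 genes, of which Clec2l, Clec5a and Clec4f lie elsewhere on chromosome 6, held 108. Of the 240 peaks, 7 were shared by neighbouring or overlapping Clec genes. Clec14a, an endothelial lectin gene, had no peak.

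The peaks came from ATAC-seq, in which the Tn5 transposase cuts accessible DNA and adds sequencing adapters. The cells, granulocyte-monocyte progenitors, were sorted from total marrow of C57BL/6 mice given no treatment, and each genotype had 3 libraries. Both genotypes lack mouse Gfi1 and carry human GFI1 in its place: GFI1 KI/KI mice as a knock-in, here GFI1-KI with libraries KI1 to KI3, and GFI1 KD/KD mice at 10 to 20% of its level, here GFI1-KD with libraries KD1 to KD3. No age is labelled. Nor do the labels tie a library to an animal, and the spread on which each p-value rests may therefore be technical.

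C-type lectin receptors bind sugars, lipids or proteins through a shared fold and are found on myeloid cells, where many of them sense fungi, mycobacteria and dying cells. Activating members signal through the kinase Syk, either directly or through the adaptors FcRγ and DAP12, and onward through the adaptor CARD9. Inhibitory members recruit phosphatases, and a further group, the Clr proteins, are ligands of natural killer cell receptors encoded in the same part of chromosome 6. GFI1 is a transcriptional repressor that favours granulocytes over monocytes.

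RefSeq promoters on GRCm38.p6, from 250 bases before to 50 after the gene start, were found for 26 of the 33 genes. Those of Clec5a, Clec2d and Clec12a are shown because a peak covered all or most of each and because these genes had called peaks at or near their starts. They lie at chr6:40585756-40586055 on the minus strand, chr6:129180365-129180664 on the plus strand and chr6:129349994-129350293 on the plus strand. Each is written 5′ to 3′ along the gene, with capitals for the GFI1 core AATCA and the PU.1 motif GAGGAAG on either strand.
Clec5a: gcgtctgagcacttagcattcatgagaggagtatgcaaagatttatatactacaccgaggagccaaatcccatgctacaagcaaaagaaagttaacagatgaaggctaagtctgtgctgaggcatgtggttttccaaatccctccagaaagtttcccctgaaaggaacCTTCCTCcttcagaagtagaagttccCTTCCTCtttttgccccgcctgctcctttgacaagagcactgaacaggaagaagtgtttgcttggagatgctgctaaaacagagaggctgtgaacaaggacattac
Clec2d: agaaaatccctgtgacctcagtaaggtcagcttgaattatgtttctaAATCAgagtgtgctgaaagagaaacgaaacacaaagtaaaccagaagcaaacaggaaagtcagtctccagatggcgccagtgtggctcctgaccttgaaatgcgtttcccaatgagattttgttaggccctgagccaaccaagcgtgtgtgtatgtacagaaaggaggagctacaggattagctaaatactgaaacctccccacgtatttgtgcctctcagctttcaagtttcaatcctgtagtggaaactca
Clec12a: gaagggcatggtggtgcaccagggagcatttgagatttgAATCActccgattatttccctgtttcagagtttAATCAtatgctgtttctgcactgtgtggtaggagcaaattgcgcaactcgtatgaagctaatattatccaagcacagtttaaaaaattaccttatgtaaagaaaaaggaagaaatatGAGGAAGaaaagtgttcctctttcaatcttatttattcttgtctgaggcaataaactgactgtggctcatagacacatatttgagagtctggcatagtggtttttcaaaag
The Clec5a promoter held 2 PU.1 matches, at -82 and -56 from the gene start, and no AATCA. The Clec2d promoter held AATCA at -203. The Clec12a promoter held AATCA at -211 and -178, GAGGAAG at -61, the RUNX motif TGTGGT at -155, and TTGCNNAA, a C/EBP motif, on both strands at -140. The AATCA at -211 overlapped a match to the AP-1 motif TGANTCA, which can contain AATCA or its reverse complement. Over both strands, AATCA was present in 13 of the 26 Clec promoters (50%) and in 37% of 32851 RefSeq promoters of the same length. GAGGAAG was present in 26.9% of the Clec promoters and 13.6% of all, and TGANTCA in 23.1% and 7.8%. A match of letters is a description and shows no binding.

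Reads in peaks numbered 19408373, 24365743 and 27741446 in KI1 to KI3 and 19857646, 16022763 and 19151059 in KD1 to KD3. Values are normalized reads, the deposited read counts times 1 factor for each library. Of 12 marker genes of granulocyte-monocyte progenitors, 10 had a peak within 1 kb of the gene start, and Fcgr3 and Prtn3 had none there. Their summed start level spanned 9256.6 to 10075 normalized reads per kb of peak among GFI1-KI libraries and 8886.6 to 9469.6 among GFI1-KD libraries. The Kit start peak was called lower in GFI1-KD, at 944.4, 936.8 and 970.7 per kb in KI1 to KI3 against 797.8, 701.2 and 748.2 in KD1 to KD3. Natural killer and T cell markers had such a peak at Klrb1c, and none at Cd3e, Cd8a, Ncr1 or Gzma. The summed level at the starts of 4 megakaryocyte markers spanned 1600.7 to 1910.2 normalized reads per kb of peak among GFI1-KI libraries and 1059.1 to 1394 among GFI1-KD libraries, and that of 3 of 4 erythroid markers, with none at Hba-a1, was 1391.4 to 1584.7 and 1203.7 to 1330.8. Mast cell and basophil markers, 2 of 3 with a peak and none at Ms4a2, ran from 704.9 to 850.1 and from 573.7 to 676.7. These 2 markers went opposite ways. Cpa3 was called lower, at 278.4, 394.6 and 454.2 in KI1 to KI3 against 161.9, 136.6 and 159.6 in KD1 to KD3. Mcpt8 was not called, at 426.5, 355.6 and 395.9 against 514.8, 452 and 414.1. The part of such cells in the Clec values was not tested. In a bulk sample, fewer cells with an open site and less open chromatin in each cell cannot be told apart.

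The question was whether accessibility at these receptor genes differed between progenitors with full and with low GFI1. Peaks averaging at least 10 normalized reads were tested, which kept 230 of the 240 Clec peaks and left out 10 weaker ones. Of these, 24 differed at an adjusted p under 0.05 in limma, 10 higher and 14 lower in GFI1-KD. This is 10.4% of the tested Clec peaks, beside 10.5% of all 170733 tested peaks (4.99% higher and 5.48% lower), so the family as a whole was called about as often as any peak. The called peaks belonged to 14 genes, 4 of them with higher peaks alone, 7 with lower peaks alone and 3 with peaks of each kind. The 18 other genes with tested peaks had none called. The median log2 fold change, GFI1-KD over GFI1-KI, was -0.02 for the Clec peaks and -0.05 for all. The genotypes did not overlap in 61 Clec peaks (26.5%), beside 28.8% of all tested peaks.

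The balance of directions changed with the scaling, the test and the library left out. With median-of-ratios scaling 18 Clec peaks were called higher and 8 lower, with equal totals 17 and 8, and by edgeR 21 and 12, and by DESeq2 8 and 2. All peaks shifted too: higher peaks made up 47.7% of all called peaks with the deposited scaling, and 60%, 58.6%, 58.4% and 66.6% in those 4 settings. Without KI2 or KI3 the count fell to 5 and 8 called peaks, and the share of all peaks called fell to 4.2% and 4.1%. Without KI1 it was 39, 25 higher and 14 lower, or 17% of tested Clec peaks beside 13% of all. Without KD2 or KD3 it was 15 and 11, and the share of all peaks called was 7.3% and 6.3%. Higher peaks made up 54.1%, 59.7% and 51.7% of all called peaks without KI1, KI2 and KI3. Without KD1, KD2 and KD3 they made up 40.3%, 53.6% and 41.6%. Calls that held under every alternative in which the peak was tested were those of a peak in Clec4n, one 9.7 kb from Clec16a and one 5.3 kb from Clec4g.

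**Figure D1:**
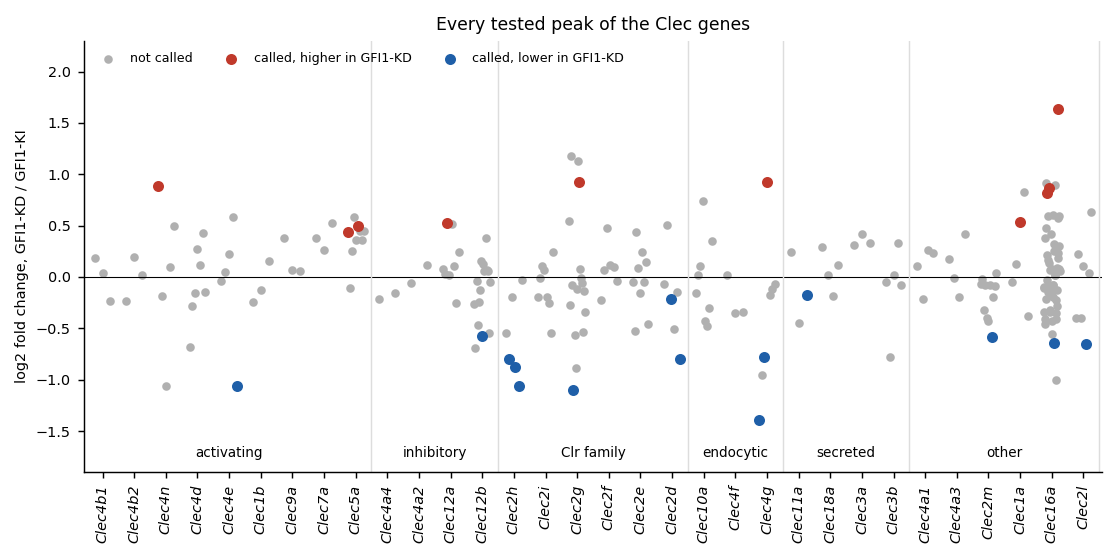
Log2 fold change (GFI1-KD over GFI1-KI, vertical axis) of each tested peak by Clec gene (horizontal axis), with genes grouped by role. A point is 1 peak, drawn under each gene it was given to. Red points were called higher and blue points lower in GFI1-KD, and the 10 red and 14 blue peaks are spread over 14 genes.

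Among activating receptors, 1 peak of Clec4n and 2 of Clec5a were called higher in GFI1-KD and 1 peak of Clec4e was called lower. Their 9 genes had 41 tested peaks, of which those of Clec1b and Clec9a also lie within the inhibitory receptor gene Clec12b and count for both. Of the 41 peaks 3 were called higher and 1 lower (9.76% called, beside 10.5% of all tested peaks). The median log2 fold change was 0.16. Changes above 0 made up 68.3%, beside 43.5% of all tested peaks, and under other scalings, tests and left-out libraries this share stayed between 63.4% and 73.2%. That of all tested peaks ran from 40.8% to 49.7% over the same settings. With the deposited scaling, 8 of the 28 activating peaks above 0 were those of Clec5a. The count of activating peaks called higher was 6 with median-of-ratios scaling or edgeR, 11 without KI1, and 1 without KI2 or without KD3. The roles were assigned from background knowledge with these values in view, so this is a description. The summed start level of 3 monocyte markers overlapped between genotypes, at 1721.3 to 2108.1 and 1983.1 to 2049.2 normalized reads per kb for GFI1-KI and GFI1-KD. The Ccr2 start peak was called higher, and those of Ly6c2 and Cx3cr1 were not called. Cx3cr1 leaned the other way, at 785.5, 701.8 and 655.7 per kb in KI1 to KI3 against 688.6, 629.6 and 634.9 in KD1 to KD3. The part of monocytes in the activating receptor values was not tested.

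Clec5a, which encodes MDL-1, a DAP12-coupled receptor of monocytes and neutrophils that binds flaviviruses, lies on chromosome 6 from 40574898 to 40585805. Of its 9 tested peaks 8 were above 0. All 8 had an unadjusted p under 0.05, as did 25.5% of all tested peaks, and 2 passed the adjusted threshold. The count that passed was 4 with median-of-ratios scaling, equal totals or edgeR, 7 without KI1, and 0 without KI2 or without KD3. The peak 2.6 kb before the gene start, from 40588380 to 40588767, held 215.1, 194.6 and 200.9 normalized reads in KI1 to KI3 and 299.6, 251.8 and 311.6 in KD1 to KD3. The GFI1-KD libraries were all above the GFI1-KI libraries, at 287.6 ± 31.6 against 203.5 ± 10.5 (SD, n = 3). The log2 fold change was 0.49 ± 0.11 (SE here and below; limma adjusted p = 0.00755), and the peak was no longer called when KI2 (0.052) or KD3 (0.0555) was left out. On the other side of the gene, the peak 0.8 kb past its end, from 40573602 to 40574074, held 219.6, 195.5 and 199.4 against 229, 287.6 and 324.9. KD1 lay close to KI1 there, and the log2 fold change was 0.44 ± 0.12 (limma adjusted p = 0.0261). That call was lost without KI2, KI3, KD2 or KD3 (0.119, 0.103, 0.0821 and 0.16). The peak on the gene start, which covers most of the promoter shown, held 143, 117.5 and 107.2 against 150.9, 159.2 and 160.8. It missed the threshold with the deposited scaling (log2 fold change 0.36 ± 0.14, limma adjusted p = 0.0949) and passed it with median-of-ratios scaling (0.0438), equal totals (0.0455), edgeR (0.0403) and without KI1 (0.0249). KI1 was the highest GFI1-KI library at this peak. Of 143 other tested peaks within 1 Mb of Clec5a, 7 were higher and 10 lower, with a median log2 fold change of -0.11.

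Clec4n encodes Dectin-2, an FcRγ-coupled receptor for fungal mannans, and held the called peak with the smallest p among the activating receptors. A peak inside the gene, on chromosome 6 from 123244227 to 123244614, held 83.3, 64 and 55.9 normalized reads in KI1 to KI3 and 120.9, 125.9 and 125.3 in KD1 to KD3. The GFI1-KD libraries were nearly equal and all above the others, at 124 ± 2.72 against 67.7 ± 14.1 (SD, n = 3). The log2 fold change was 0.88 ± 0.16 (limma adjusted p = 0.0015), and it ran from 0.76 to 1.04 over 17 alternatives, all of them called. The other 4 Clec4n peaks lay outside the gene and were not called. The strongest of these, 5.7 kb away, held 409.8, 399.7 and 388.9 against 410.9, 432 and 443.5 (log2 fold change 0.10 ± 0.09, limma adjusted p = 0.505). A weak peak 2.2 kb away went down, from 13.5, 16.7 and 16.6 to 9.63, 3.7 and 8.87 (-1.06 ± 0.40, limma adjusted p = 0.0907).

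Clec4e and Clec4d, the neighbours of Clec4n, encode Mincle and MCL, which together bind the mycobacterial glycolipid cord factor. At Clec4e a peak 3.2 kb from the gene, from 123293099 to 123293281, held 22.5, 57 and 34 in GFI1-KI and 23.5, 11.1 and 16.6 in GFI1-KD, or -1.06 ± 0.31 as log2 fold change (limma adjusted p = 0.0319). It was the called Clec peak at which the genotypes overlapped, since KD1 lay above KI1. The call was lost by DESeq2 (0.0765) and without KI2 (0.256), KI3 (0.0921), KD2 (0.145) or KD3 (0.0803). Both the strongest Clec4e start peak and the peak 0.3 kb before it went the other way without passing, with log2 fold changes of 0.22 ± 0.12 and 0.58 ± 0.24 (limma adjusted p = 0.234 and 0.122), though the second was called without KI1 (0.04). No Clec4d peak was called. Its strongest, 1.5 kb outside the gene, held 407.6, 435.6 and 460.7 against 411.9, 318.4 and 345.9 (log2 fold change -0.28 ± 0.10, limma adjusted p = 0.0779) and was called without KD1 (0.0154), the GFI1-KD library that lay within the GFI1-KI range.

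Clec7a encodes Dectin-1, the receptor for fungal beta-glucan. Its 3 peaks were all above 0 and none was called. The peak just inside the gene held 126.1, 112.2 and 92.9 against 134.8, 135.8 and 157.4, with no overlap (log2 fold change 0.37 ± 0.15, limma adjusted p = 0.105). It was called with median-of-ratios scaling (0.047), by edgeR (0.0412) and without KI1 (0.04). At the gene start the values were 143, 153.4 and 122.3 against 134.8, 204.9 and 168.5, and KD1 lay inside the GFI1-KI range (0.26 ± 0.15, limma adjusted p = 0.28). Clec9a, the dendritic cell receptor for filaments of dead cells, had 3 peaks with log2 fold changes from 0.06 to 0.38. Clec1b, the platelet receptor for podoplanin, had 3 from -0.24 to 0.16, and Clec4b1 and Clec4b2, relatives without an inhibitory motif, had 3 each from -0.24 to 0.19. None of these was called.

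**Figure D2:**
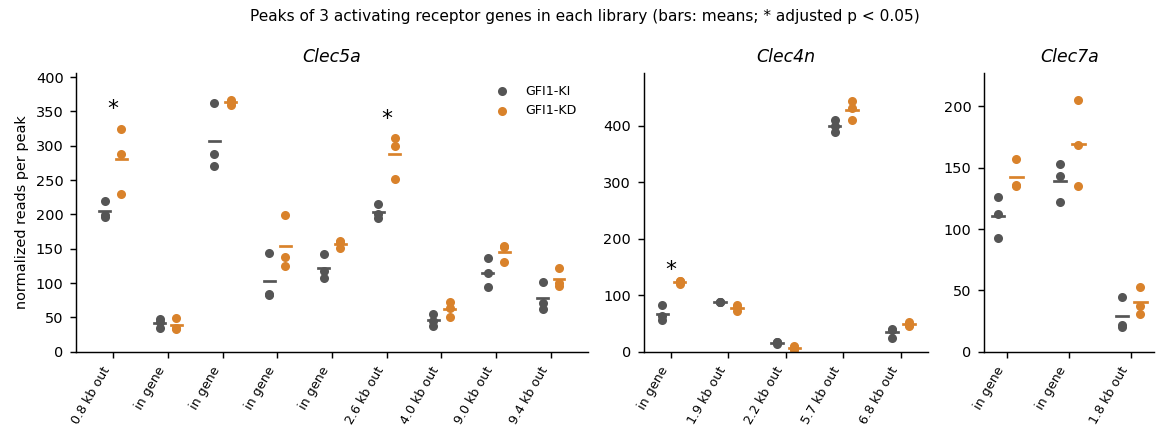
Normalized reads (vertical axis) in each library at every tested peak of Clec5a, Clec4n and Clec7a (horizontal axis, by distance from the gene). Points are libraries, short bars are means of 3, and an asterisk marks an adjusted p under 0.05. At 8 of the 9 Clec5a peaks the GFI1-KD mean is the higher, and 2 of these were called.

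Inhibitory receptors had 27 tested peaks, 1 higher and 1 lower (7.41% called, beside 10.5% of all tested peaks). Clec12a encodes MICL, also called CLL-1, an inhibitory receptor of myeloid cells that is used as a surface marker of leukaemic stem cells. Its start peak, which covers the whole promoter shown, held 1094.4, 1050.9 and 990 normalized reads in KI1 to KI3 and 1162, 972.5 and 1064.4 in KD1 to KD3. The genotypes overlapped, with a log2 fold change of 0.03 ± 0.07 (limma adjusted p = 0.858). The next peak, inside the gene from 129351152 to 129351453, held 150.9, 142 and 130.6 against 209.7, 201.2 and 197.4. It was higher in all 3 GFI1-KD libraries, at 202.8 ± 6.33 against 141.2 ± 10.1 (SD, n = 3; log2 fold change 0.52 ± 0.12, limma adjusted p = 0.00831). The call was lost without KI3 (0.0632). In Clec12b, an inhibitory receptor of myeloid cells and skin mast cells whose long RefSeq gene body spans Clec1b and Clec9a, 1 of 15 peaks was lower. It held 58.5, 76.3 and 71 against 42.8, 50.6 and 43.2 (log2 fold change -0.58 ± 0.18, limma adjusted p = 0.0455) and lost its call in 9 of 17 alternatives. Clec4a2 and Clec4a4, which encode the inhibitory receptors DCIR1 and DCIR2, had 4 tested peaks between -0.22 and 0.11, none called (smallest limma adjusted p = 0.418).

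The Clr genes Clec2d to Clec2i leaned the other way with the deposited scaling. Of 51 tested peaks 6 were lower and 1 higher in GFI1-KD, beside 5.48% and 4.99% of all peaks. With median-of-ratios scaling or equal totals the counts were 4 lower and 3 higher, by edgeR 5 lower and 4 higher, and by DESeq2 1 of each. Leaving out KI1 gave 3 lower and 4 higher, KI2 0 and 0, KI3 1 and 1, KD1 2 and 0, KD2 3 and 2, and KD3 4 and 1. The Clr median log2 fold change was -0.07, and by DESeq2 it was 0.01. Clec2d encodes Clr-b, the widely expressed ligand of the inhibitory receptor NKR-P1B. Its start peak, which covers the promoter shown, held 1025.7, 1073.7 and 1014.9 normalized reads against 845.3, 891.1 and 940.2. All 3 GFI1-KD values were below the GFI1-KI values, by a small amount for a strong peak (log2 fold change -0.22 ± 0.07, limma adjusted p = 0.0374). The call was lost with median-of-ratios scaling (0.0804), equal totals (0.0604), edgeR (0.0702), DESeq2 (0.175) and without KI2 (0.203), KI3 (0.119), KD1 (0.0964) or KD3 (0.0517). A peak 23.9 kb from Clec2d, from 129210431 to 129210762, held 61.9, 99 and 77.8 against 46, 39.5 and 48.8 (-0.80 ± 0.19, limma adjusted p = 0.0102), and its call was lost without KI2 (0.108).

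Clec2h, which encodes Clr-f, a ligand found in gut and kidney, had all 6 tested peaks below 0 with the deposited scaling and 5 of 6 with the other scalings, and 3 of them were called. They lay 8.8 to 13.5 kb outside the gene. The strongest held 56.3, 50 and 52.9 against 24.6, 25.9 and 42.1 (log2 fold change -0.80 ± 0.22, limma adjusted p = 0.0222). The other two changed by -0.87 ± 0.28 and -1.07 ± 0.31 (limma adjusted p = 0.0443 and 0.0304). KD3 was the highest GFI1-KD library at 2 of the 3, and each call was lost without KI2 and without KI3, among other settings.

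In Clec2g, another Clr gene, 2 called peaks inside the gene went opposite ways. The peak from 128961207 to 128961430 held 55.2, 50 and 49.8 in GFI1-KI and 10.7, 24.7 and 47.7 in GFI1-KD. The peak from 128974742 to 128975202 held 63.1, 47.3 and 33.2 against 155.1, 66.6 and 67.6. KD1 was the extreme library in both, and KD3 or KD2 lay beside the GFI1-KI values. The log2 fold changes were -1.10 ± 0.33 and 0.92 ± 0.26 (limma adjusted p = 0.032 and 0.0257), and without KD1 they were -0.57 and 0.53 and neither was called (0.142 and 0.154). A further peak inside the gene, from 128972673 to 128973044, held 201.2 in KD1 and between 20.3 and 26.6 in the other 5 libraries and was not called (1.13 ± 0.46, limma adjusted p = 0.123). No peak was called at Clec2i, Clec2e or Clec2f, including the second strongest Clr peak, inside Clec2i, at 846.7, 802.9 and 821.6 against 818.5, 776.3 and 867.1 (-0.01 ± 0.07, limma adjusted p = 0.967).

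In the Clec2h to Clec7a part of the cluster KD1 was often the lowest library. It was the lowest of the 6 in 40 of 92 tested Clec peaks (43.5%) and in 34 of 82 other tested peaks between these genes (41.5%), beside 19.3% of all tested peaks. From Clec4a1 to Clec4e it was the lowest in 7 of 35. Without KD1 the peaks called lower in the chromosome 6 cluster went from 9 to 4, while those called higher stayed at 4. Over the whole cluster, 13 of 127 tested Clec peaks were called (10.2%), beside 10.5% of all tested peaks. Of 665 other tested peaks in the same stretch 44 were called, 15 higher and 29 lower (6.62%). Neither share was tested against the rest of the genome.

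**Figure D3:**
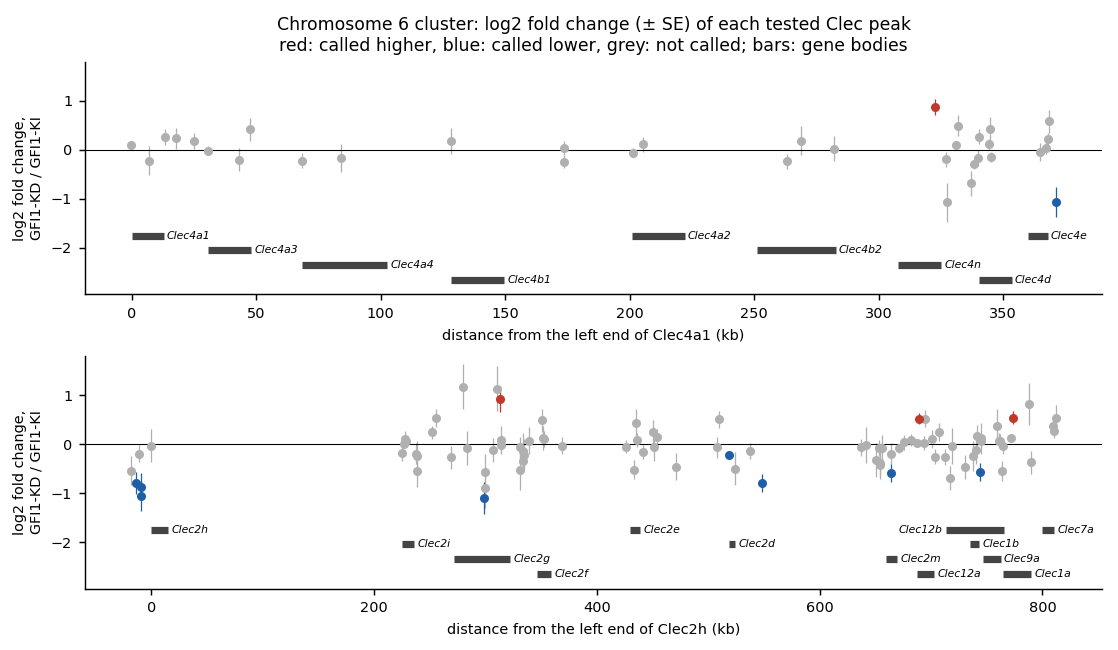
Log2 fold change (GFI1-KD over GFI1-KI, with SE) of each tested Clec peak along both parts of the chromosome 6 cluster, by distance in kb from the left end of Clec4a1 (upper) and Clec2h (lower). Dark bars are gene bodies. From Clec4a1 to Clec4e 2 peaks were called, red higher and blue lower, and from Clec2h to Clec7a 3 were called higher and 8 lower.

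Endocytic receptors of liver and macrophages had 18 tested peaks, 1 higher and 2 lower (16.7% called, beside 10.5% of all tested peaks). These calls were all at Clec4g. This gene encodes LSECtin, a receptor of liver and lymph node sinus endothelium, and lies on chromosome 8 from 3707066 to 3720695. The peak 5.3 kb outside it, from 3701556 to 3701792, held 51.8, 56.1 and 55.9 in GFI1-KI and 13.9, 19.7 and 29.9 in GFI1-KD (log2 fold change -1.39 ± 0.25, limma adjusted p = 0.00103). The peak 1 kb outside the gene held 46.2, 50 and 55.9 against 22.5, 25.9 and 42.1 (-0.78 ± 0.23, limma adjusted p = 0.0328), and its call was lost by DESeq2 (0.151) and without KI2 (0.104), KI3 (0.15), KD1 (0.108) or KD2 (0.106). A peak inside the gene went up, from 87.8, 80.6 and 80.8 to 252.5, 162.9 and 96.5 (0.92 ± 0.22, limma adjusted p = 0.00877). At all 3 peaks KD1 lay farthest from the GFI1-KI libraries, KD2 between and KD3 nearest. The higher peak missed the threshold with robust variance estimation (0.0829) and by DESeq2 (0.0847). The strongest Clec4g peak, with 394.1, 318.2 and 345.1 against 314.6, 293.7 and 369.2, was not called. Of 149 other tested peaks within 1 Mb of Clec4g, 3 were higher and 14 lower. Their median log2 fold change was -0.17, beside -0.05 for all tested peaks, so lower values were not particular to this gene. Clec4f, the Kupffer cell receptor, and Clec10a, the galactose-binding receptor MGL1 of macrophages, had no called peak in 3 and 8 tested, and the start or end peak of Clec10a held 554, 574.1 and 542.2 against 566, 534.4 and 591 (log2 fold change 0.02 ± 0.08, limma adjusted p = 0.92).

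Among the secreted members, Clec11a stood out by its level. It encodes osteolectin, also known as stem cell growth factor, which is made in bone marrow. A peak inside the gene, on chromosome 7 from 44304761 to 44305695, was stronger than 99.9% of all tested peaks. It held 2408.4, 2444.5 and 2433.2 normalized reads in GFI1-KI and 2238.4, 2167.2 and 2045.7 in GFI1-KD, with no overlap. The change was small, at 2429 ± 18.5 against 2150 ± 97.5 (SD, n = 3; log2 fold change -0.18 ± 0.05, limma adjusted p = 0.0217), and it was not called with median-of-ratios scaling (0.117), equal totals (0.0544), edgeR (0.142), DESeq2 (0.309) or without KI2 (0.121), KI3 (0.124) or KD3 (0.132). Clec3a of cartilage had 3 peaks between 0.31 and 0.42, Clec3b, tetranectin, 5 between -0.77 and 0.33, and Clec18a 4 between -0.19 and 0.29. None was called.

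Clec16a is named for a lectin-like stretch but encodes a cytosolic protein of mitophagy and endosome traffic. The gene, on chromosome 16 from 10545309 to 10744878, held the most peaks of any member, 54 tested, of which 3 were higher and 1 lower. The largest change of all Clec peaks lay 9.7 kb outside it, from 10754607 to 10754888. This peak held 30.4, 21 and 18.9 normalized reads in GFI1-KI and 109.1, 65.4 and 55.4 in GFI1-KD, and even the lowest GFI1-KD value was above the highest GFI1-KI value. The log2 fold change was 1.64 ± 0.24 (limma adjusted p = 0.000233), between 1.35 and 1.84 over 17 alternatives, all of them called. Inside the gene, 2 weak peaks were higher, at 27.9 ± 6.14 against 49.7 ± 8.16 and 15.8 ± 0.857 against 29.7 ± 3.31 for GFI1-KI against GFI1-KD (SD, n = 3; limma adjusted p = 0.0201 and 0.0307). A stronger one was lower, at 73.6 ± 4.41 against 46.8 ± 3.12 (log2 fold change -0.64 ± 0.17, limma adjusted p = 0.0195). Each of these 3 calls was lost without KI2, KI3 or KD3. Of 220 other tested peaks within 1 Mb of Clec16a, 1 was higher and 13 lower.

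Clec1a, a receptor of endothelium and dendritic cells that recognises fungal melanin, had 1 of 5 peaks higher. It lay inside the gene and held 143, 125.3 and 108 against 164.8, 185.1 and 195.1 (log2 fold change 0.54 ± 0.14, limma adjusted p = 0.0141), and its call was lost without KI2 (0.0575), KI3 (0.109) or KD3 (0.0752). A stronger peak in the same gene, at 535.9, 502.2 and 462.2 against 512.5, 554.1 and 565.5, was not called. Clec2m had 10 of 11 tested peaks below 0, with 1 called, at 78.8, 72.7 and 74.8 against 38.5, 56.8 and 56.5 (-0.59 ± 0.18, limma adjusted p = 0.0443). Clec2l, expressed in brain, had 1 of 7 lower, at 57.4, 69.2 and 43 against 39.6, 34.6 and 31 (-0.66 ± 0.21, limma adjusted p = 0.0474). Without KD1, 5 of the 11 Clec2m peaks were below 0. The Clec2m call was lost in 10 of 17 alternatives and the Clec2l call in 10 of 16. Clec4a1 and Clec4a3, members of the DCIR group, had 4 tested peaks each and none called, with the smallest p at 0.26 ± 0.16 and 0.42 ± 0.24 (limma adjusted p = 0.302 and 0.275).

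**Figure D4:**
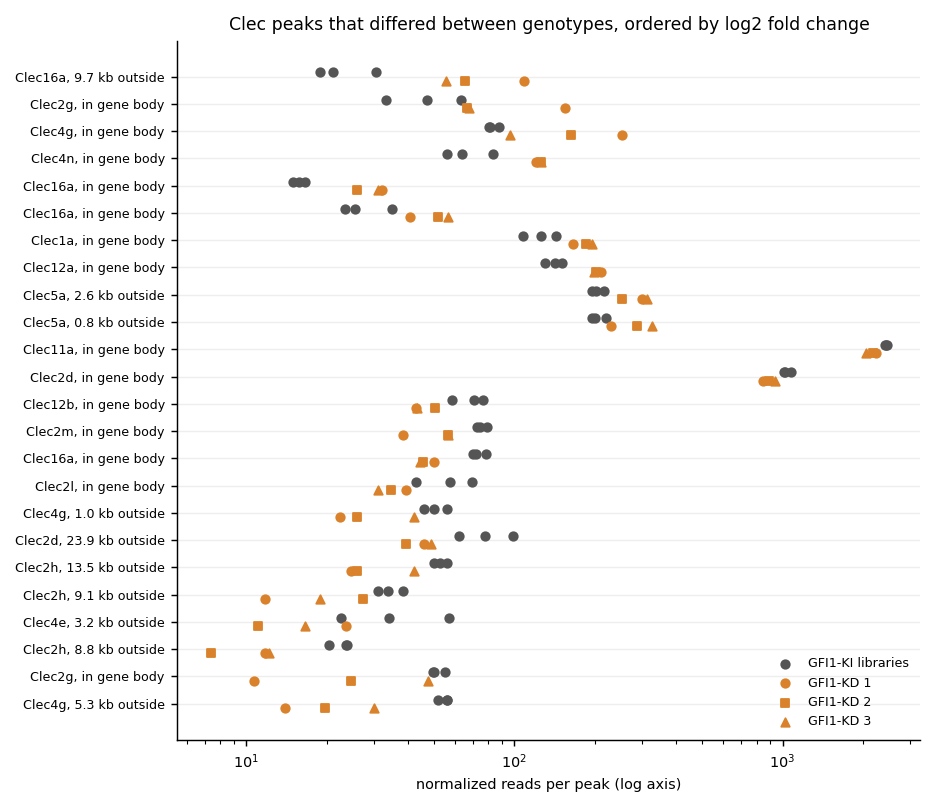
Normalized reads (horizontal log axis) in each library at the 24 called Clec peaks, ordered from the largest increase in GFI1-KD at the top to the largest decrease at the bottom. Grey points are GFI1-KI libraries, and orange circles, squares and triangles are KD1, KD2 and KD3. The genotypes are apart at 23 of the 24 peaks, which were selected for differing, and at 28.8% of all tested peaks. KD1 is far from KD3 at the Clec4g and Clec2g peaks.

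Levels at gene starts ranged widely over the family. Of the 33 genes, 18 had a peak within 1 kb of a gene start, or of either end where no promoter entry gave the strand. Per kb of peak, Clec16a (1366 ± 77.1 in GFI1-KI, SD, n = 3), Clec2d (1290 ± 38.9) and Clec12a (1199 ± 60.1) were the most open, and the first did not exceed the second beyond its spread. Clec4a2, at 900 ± 131, and Clec2i, at 824.6 ± 80.9, came next and overlapped. The activating receptor genes Clec4e (393.6 ± 60.8), Clec5a (374.8 ± 56.3), Clec4d (289.1 ± 27.3) and Clec7a (282.5 ± 32) were lower than these. In GFI1-KD these 4 were at 456.6 ± 20.7, 480 ± 16.3, 349.1 ± 15.8 and 342.9 ± 70.9 normalized reads per kb. Low levels were not particular to activating receptors, since the inhibitory receptor gene Clec4a4 was at 233.9 ± 36.8 in GFI1-KI. The lowest starts were those of Clec2h (74.3 ± 19.6) and Clec4b1 (73.6 ± 22.5). Of 27 tested start or end peaks, 1 was higher, in Clec12a, and 1 lower, in Clec2d (7.41% called, beside 10.5% of all peaks). The genotypes did not overlap in 8 of these 27 (29.6%), beside 28.8% of all tested peaks.

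**Figure D5:**
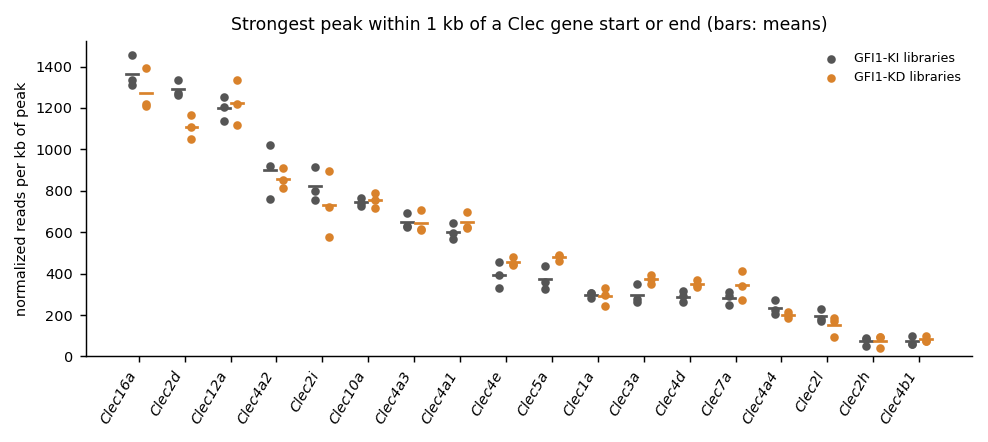
Normalized reads per kb of peak (vertical axis) at the strongest peak within 1 kb of each Clec gene start or end (horizontal axis, ordered by the GFI1-KI mean). Points are libraries and bars are means of 3. Levels run from 1366 at Clec16a to 73.6 at Clec4b1 in GFI1-KI, and of the 18 peaks drawn the Clec2d peak was called, lower in GFI1-KD.

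The genes that carry lectin receptor signals were followed in a list of 25 adaptors, kinases and effectors. All 25 had tested peaks, and 23 of 530 peaks were higher and 21 lower. This is 8.3% called, beside 10.5% of all tested peaks, with a median log2 fold change of 0.01. Called peaks were all higher at 6 genes, all lower at 3 and mixed at 6. Fcer1g, which encodes the FcRγ adaptor of Dectin-2 and Mincle, had 1 of 3 peaks higher, from 363.7, 291 and 251.5 to 529.6, 411 and 367 (log2 fold change 0.53 ± 0.13, limma adjusted p = 0.0117). No GFI1-KD library fell below the highest GFI1-KI library there. Tyrobp, which encodes DAP12, the adaptor of Clec5a, had none called in 9, Card9 none in 5, and Ptpn6, the phosphatase of inhibitory receptors, none in 6. Syk had 2 of 39 higher and 2 lower. Bcl10, the scaffold downstream of CARD9, was lower at the peak with its smallest p, at 2061.6, 2044.9 and 2040.5 against 1751.6, 1794.5 and 1745.2 (-0.22 ± 0.05, limma adjusted p = 0.00684). These 6 genes were named for their place in the pathway after the values were seen. The Fcer1g and Bcl10 peaks were not followed through the alternative settings. By p, leading peaks were lower at Plcg2 (-0.68 ± 0.10), Il1b (-2.11 ± 0.42) and Nfatc2 (-1.24 ± 0.25) and higher at Nfatc1 (1.07 ± 0.17) and Ptpn11 (1.21 ± 0.23), with limma adjusted p from 0.000225 to 0.00281. Other called peaks of these genes did not all go the same way, with 3 higher and 2 lower at Il1b, 3 and 6 at Nfatc2 and 2 and 2 at Nfatc1. The leading Il1b peak was weak, at 15.8, 54.3 and 40.8 in KI1 to KI3 against 13.9, 4.94 and 4.44 in KD1 to KD3.

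Lectin genes not named Clec formed a second list of 54, with the Klr receptors of natural killer cells, selectins and macrophage lectins. Among the 45 with tested peaks, called peaks were all higher at 6 genes, all lower at 9 and mixed at 1. Of 313 peaks, 14 were higher and 15 lower (9.27% called, beside 10.5% of all tested peaks). The smallest p was at Klrb1c, which encodes the natural killer receptor NK1.1 and lies between Clec2h and Clec2i. A peak inside it held 112.6, 174.4 and 122.3 against 42.8, 59.2 and 59.9 (log2 fold change -1.31 ± 0.18, limma adjusted p = 0.00013). Its neighbour Klrb1b, the receptor for Clr-b, was higher 3.5 kb away (0.97 ± 0.17), so changes of both signs lay among the Clr genes and their receptors. Leading peaks of the remaining named genes were lower at Cd207, the Langerhans cell lectin (-0.88 ± 0.15), Cd72, a B cell co-receptor (-0.82 ± 0.16), and Pla2r1 (-1.16 ± 0.24), and higher at Klra10 (1.10 ± 0.20), all with a limma adjusted p of 0.00313 or less.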

How the data were processed

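Per the labels, libraries were made with a Nextera kit. WT columns were read as GFI1-KI, which the series title calls wildtype, with replicate numbers as labelled. The deposited values are a signal per consensus peak. Each equals a read count times a factor of its library (100% whole within 0.01 reads), so reads were recovered for edgeR and DESeq2. The submitters' processing notes list BWA, ChIPseeker, DiffBind, HOMER, MACS2, Picard, SAMtools, Trim Galore and mm10. What each did, the factors' origin and any transposase shift were not given in the sources used here.

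Chromosome codes were read alphabetically, which put 14.9% of peaks within 1 kb of a gene end, against 3.4% numerically. Genes and promoters came from RefSeq GRCm38.p6. Exons and introns were not told apart, and the gene given to a peak may not be its target.

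All 170733 peaks with a mean of at least 10 were fitted in limma 3.58.1 (R 4.3.3, trend) as log2(value + 1), which understates changes of low peaks, with Benjamini-Hochberg adjustment over all of them at 0.05. The fit was also run on simulated reads in which all peaks shared the same dispersion between libraries. That setting is simpler than these data and cannot support single calls. Libraries of the same number did not deviate together (correlations -0.024, -0.038 and 0.056), so no replicate block was used. Alternatives were 2 other scalings, 2 pseudocounts, 2 filters, 2 assignments, a threshold of 0.01, a block, robust variance, edgeR 4.0.16, DESeq2 1.42.0 and leaving out each library.

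Named by rule were called Clec peaks, gene start or end peaks, the smallest p at uncalled genes among the 15 strongest, and the leading called peaks of 6 genes of each further list, of which 1 is not reported here. Other uncalled peaks given were chosen after their values were seen. Members, roles and lists were chosen with earlier results of these data known.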

Additional observations from a re-analysis of the deposited data

How the results depend on the processing

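Counts of called peaks depended on the setting more than single directions did. In the chromosome 6 cluster 4 Clec peaks were higher and 9 lower, and at the other Clec genes 6 and 5. With median-of-ratios scaling these were 8 and 5, and 10 and 3. With equal totals they were 7 and 5, and 10 and 3. By edgeR the higher counts were 9 and 12, and by DESeq2 the lower counts were 1 and 1 and the signalling list had 23 called peaks in place of 44. With peaks of mean 50 or more the cluster had 4 lower and the list of other lectins 18 in place of 29. With peaks in gene bodies alone there were 4 lower in the cluster, 3 higher and 3 lower elsewhere, 25 in the signalling list and 7 in the other lectins. At an adjusted p under 0.01 in limma the cluster had 2 higher and 0 lower (22.8% of its tested peaks, 29 of 127, had an unadjusted p under 0.05, beside 25.5% of all peaks), the other Clec genes 3 and 1, the signalling list 13, the other lectins 15 and the other peaks of the chromosome 6 stretch 15 in place of 44. Leaving out 1 library gave 2 to 10 higher and 0 to 7 lower in the cluster, 2 to 15 and 1 to 8 elsewhere, 12 to 62 in the signalling list, 11 to 37 in the other lectins and 16 to 59 in the rest of the stretch. A replicate block gave 5 higher and 9 lower in the cluster and 8 and 6 elsewhere, moved none of these counts by over 1.5 times and changed no call of a named peak. No called Clec peak changed sign under the alternatives run. The cause of these shifts was not tested, apart from fewer libraries or peaks by construction. Depth limits weak peaks: the median standard error of a log2 fold change over tested Clec peaks was 0.21.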
